A study of Mus musculus with 12 samples.

Results

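The genes described here encode the ligands and receptors of the semaphorin, ephrin, Slit and netrin guidance systems, read in embryonic mouse limbs that have or lack the transcription factor Lmx1b. They were taken as a list of 45 genes. Where several probe sets named a gene and no other, the brightest on average across the 12 arrays stood for it. Of the 45, 44 were measured among 18193 genes, and Ephb2, a receptor for B-type ephrins, was not analysed here. The 44 were 8 semaphorins, 10 neuropilins and plexins, 8 Eph receptors, 8 ephrins, 5 Slits and Robos, and 5 netrins and netrin receptors. Total RNA from pooled limbs was hybridised to 1-colour Affymetrix arrays, 1 pool to an array. The 6 groups, each of 2 arrays, were Lmx1b -/- (KO) and Lmx1b +/+ (WT) embryos of strain C57BL/6 at 11.5, 12.5 and 13.5 days post coitum (dpc), with no tissue-restricted driver named for the deletion. Pools are described as fore- and hindlimbs, 6 limbs each by the extraction protocol, though the series text gives 3 at 12.5 dpc. At 11.5 and 12.5 dpc they held the limb bud with its girdle. At 13.5 dpc the tissue is labelled handplate, while the series text describes the zeugopod with the autopod. The replicates are described as coming from different embryos, so p-values cover the spread between pools of embryos, and with 2 arrays in a group every value has limited precision.

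Semaphorins bind plexins, and most secreted class 3 semaphorins do so through a neuropilin that serves as the ligand-binding part of the receptor. Ephrins are anchored to the cell surface and bind Eph receptor tyrosine kinases on the neighbouring cell, Slits bind Robo receptors, and netrins bind Dcc, which attracts growth cones, and Unc5 receptors, which repel them. In the limb these systems steer motor and sensory axons and blood vessels, and several are also made by the mesenchyme itself. Lmx1b is the homeodomain factor of the dorsal limb mesenchyme, and motor axons that carry Epha4 are known to take the dorsal path into the limb.

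Lmx1b itself lay at 5.60 and 5.72 in KO limbs at 11.5 dpc, against 9.28 and 9.64 in WT limbs (log2 expression, as are all levels below). Its level at 12.5 dpc was 6.50 and 7.02 in KO limbs and 9.29 and 9.55 in WT limbs. Its level at 13.5 dpc was 7.48 and 8.88 in KO limbs and 10.27 and 10.19 in WT limbs. KO lay below WT at each stage, by -2.84 ± 0.20 on average over the 3 stages (log2 KO minus WT ± SE, limma adjusted p = 0.000356), and the KO 13.5 dpc replicate 2 array was the closest to WT. A second Lmx1b probe set differed by -0.16. KO 13.5 dpc replicate 2 and KO 12.5 dpc replicate 2 stood apart from their partners in marker sums given below. The spread within a pair, given next, cannot say which of its 2 arrays is the odd one. The KO pairs of 12.5 and 13.5 dpc differed by 0.356 and 0.267 (root mean square over genes), against 0.140 in the KO pair of 11.5 dpc and 0.148 to 0.237 in WT pairs. The limb mesenchyme marker Prrx1 averaged 12.36, and 5 or 6 of 6 such markers lay above the median of all values, 6.28, on every array. The dimmest was Pitx1, a hindlimb factor, at 5.76 to 6.28 at 11.5 and 12.5 dpc and 9.88 to 10.30 at 13.5 dpc. Tbx5, a forelimb factor, lay at 10.14 to 11.38 and then at 9.47 to 9.93. Whether the earlier pools held hindlimbs was not tested. The summed level of 7 neuron and axon markers ranged over 9.85 to 10.21 in KO arrays and 9.85 to 10.52 in WT arrays, and that of 6 endothelial markers over 11.09 to 11.28 in KO arrays and 11.23 to 11.48 in WT arrays. In such bulk samples, fewer cells of a type and less RNA per cell cannot be told apart. Each stage has its own array file series in the labels, holding both genotypes, and a changed dissection at 13.5 dpc. Effects of stage, series, dissection and the limbs pooled therefore cannot be told apart.

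The promoters of Nrp2, Slit2 and Epha5 are shown because Nrp2 was the 1 guidance gene that passed the test between genotypes, and Slit2 and Epha5 were the other guidance genes whose KO arrays, on the probe set used, all lay on 1 side of the WT arrays at every stage. Each line gives the 250 bases before the gene's start, 5′ to 3′ in the gene's direction, from RefSeq on GRCm38.p6. Capitals mark the homeodomain core letters TAAT or, read on the other strand, ATTA. The windows are chr1:62703067-62703316 (plus strand) for Nrp2, chr5:47982905-47983154 (plus strand) for Slit2 and chr5:84417383-84417632 (minus strand) for Epha5.
Nrp2: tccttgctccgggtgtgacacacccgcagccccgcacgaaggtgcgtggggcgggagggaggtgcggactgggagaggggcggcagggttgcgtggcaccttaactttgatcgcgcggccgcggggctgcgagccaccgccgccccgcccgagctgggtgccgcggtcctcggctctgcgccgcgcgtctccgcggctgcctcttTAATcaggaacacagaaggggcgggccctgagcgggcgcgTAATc
Slit2: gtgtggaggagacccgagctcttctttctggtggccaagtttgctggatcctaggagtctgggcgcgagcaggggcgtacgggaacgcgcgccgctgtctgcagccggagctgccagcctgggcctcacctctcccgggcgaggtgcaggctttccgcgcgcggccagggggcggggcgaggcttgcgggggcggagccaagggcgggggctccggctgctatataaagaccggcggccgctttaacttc
Epha5: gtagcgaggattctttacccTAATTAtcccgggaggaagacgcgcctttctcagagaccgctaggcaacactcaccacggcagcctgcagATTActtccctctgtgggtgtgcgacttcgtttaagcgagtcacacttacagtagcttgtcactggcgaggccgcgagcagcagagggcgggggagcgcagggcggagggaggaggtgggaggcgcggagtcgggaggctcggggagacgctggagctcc
Nrp2 held 2 such matches, at 45 to 42 and 5 to 2 bases before the start, in a window of 72.4% G and C. Slit2 held 0 at 69.6% G and C. Epha5 held 3 at 62.4% G and C, of which 2 overlap as the palindrome TAATTA, 230 to 225 bases before the start. The letters are common. TAAT on either strand was present in 54.9% of 32851 RefSeq windows of this length and in 20 of the 43 windows of 36 guidance genes (46.5%). TAATTA was present in 4.84% of all windows and in 2 of the 43 (4.65%), those of Efna1 and Epha5. A match is a description of the letters and not a bound site.

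Nrp2, the neuropilin that carries signals of Sema3f and Sema3c, was lower in KO limbs at every stage. At 11.5 dpc it lay at 9.62 and 9.63 in KO limbs, against 10.42 and 10.54 in WT limbs. At 12.5 dpc it lay at 9.30 and 9.72 in KO limbs, against 10.63 and 10.51 in WT limbs. At 13.5 dpc it lay at 9.56 and 10.22 in KO limbs, against 10.36 and 10.30 in WT limbs. On this probe set all 6 KO arrays lay below all 6 WT arrays, by a wide margin at the first pair of stages and, for KO 13.5 dpc replicate 2, by a narrow one. The level was thus 1.81-fold lower in KO at 11.5 dpc, 2.08-fold lower at 12.5 dpc and 1.36-fold lower at 13.5 dpc. Over the 3 stages the difference was -0.79 ± 0.11, or 1.72-fold (limma, Benjamini-Hochberg adjusted p = 0.0271 over 18193 genes, 6 arrays per genotype). This was the 1 member of 44 that passed, where 0.203% of all genes passed. At single stages the limma adjusted p was 1 at 11.5 dpc, 0.126 at 12.5 dpc and 0.834 at 13.5 dpc.

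The call depended on the arrays and on the choice of probe set, although the sign did not. It held under 9 of 20 alternatives, with differences of -0.97 to -0.59. It ended when any 1 of the 8 arrays other than the KO arrays of 12.5 and 13.5 dpc was left out (limma adjusted p = 0.0619 to 0.128), and with the replicate number as a block (limma adjusted p = 0.146). Without the 2 KO arrays that stood apart the difference was -0.97. Those arrays read nearer to WT for Nrp2 than their partners, so a larger difference followed from leaving them out. That fit has 1 array in each KO group of 12.5 and 13.5 dpc. Other Nrp2 probe sets gave -0.67 and -0.80 and a dim one, with a mean of 6.20, gave -0.12. The plot of every probe set shows that the 3 brighter ones lay between -1.10 and -0.85 at 11.5 and 12.5 dpc and between -0.45 and -0.28 at 13.5 dpc. At 13.5 dpc the 2 not used did not separate the genotypes, since KO replicate 2 read 9.54 on the one, against 9.50 and 9.46 in WT limbs, and 9.33 on the other, against 9.45 and 9.29 in WT limbs. All 6 of 6 cartilage markers had a negative KO minus WT difference over the 3 stages, with a median of -0.85, and none passed the test. Their summed level ran over 12.31 to 13.63 in KO arrays and 12.51 to 13.93 in WT arrays. Their part in the Nrp2 difference was not tested.

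**Figure D1:**
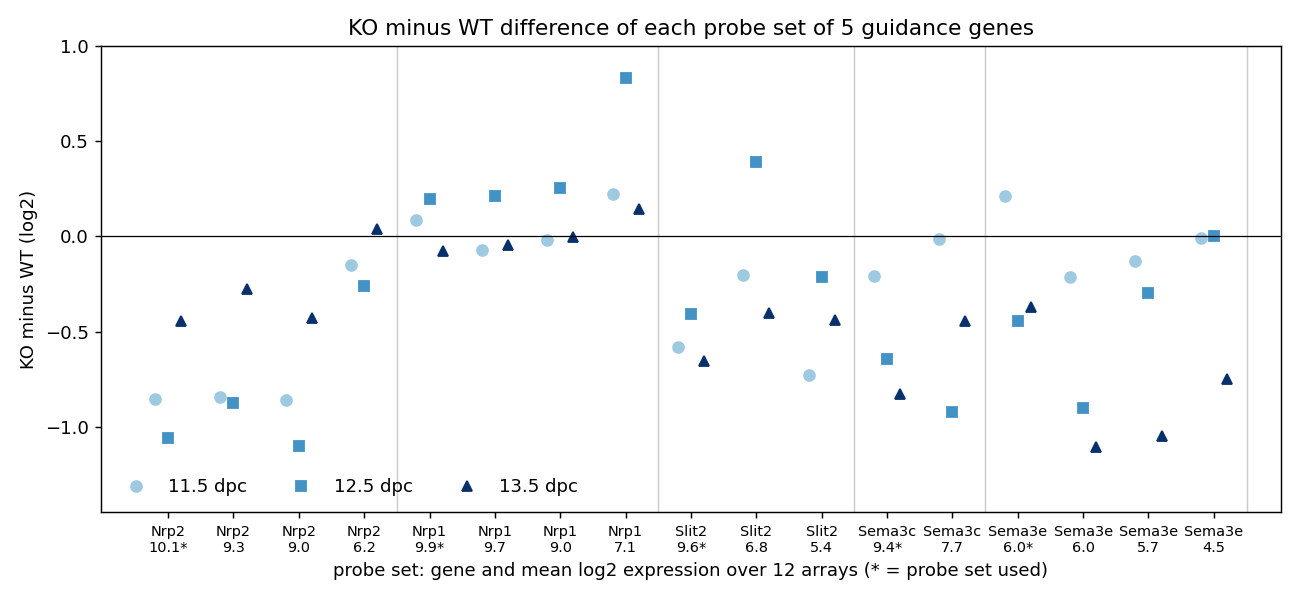
KO minus WT difference (log2, y axis) of each probe set of Nrp2, Nrp1, Slit2, Sema3c and Sema3e at 11.5, 12.5 and 13.5 dpc (circles, squares and triangles), with the mean level of each probe set under its gene and an asterisk on the probe set used. The 3 brighter Nrp2 probe sets lie below 0 at every stage, and the 3 brighter Nrp1 probe sets lie between -0.08 and 0.26.

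Nrp1, the neuropilin of Sema3a and a receptor part for vascular endothelial growth factor, did not pass. It lay at 9.97 and 9.83 in KO limbs and 9.92 and 9.71 in WT limbs at 11.5 dpc. It lay at 10.22 and 10.30 in KO limbs, above both WT arrays with their mean of 10.07, at 12.5 dpc, and at 9.70 and 9.77 in KO limbs and 9.91 and 9.72 in WT limbs at 13.5 dpc. The genotypes overlapped at 11.5 and 13.5 dpc, and the difference over the 3 stages was 0.07 ± 0.06 (limma adjusted p = 0.924). Whether the 2 neuropilins differ in their response was not tested. Of the 8 plexins, the signalling receptors of semaphorins, none passed over the 3 stages. Their differences ran from -0.18 ± 0.11 for Plxnc1, the receptor of Sema7a, to 0.08 ± 0.09 for Plxna4. Plxnd1, the vascular receptor of Sema3e, lay at -0.10 ± 0.08.

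**Figure D2:**
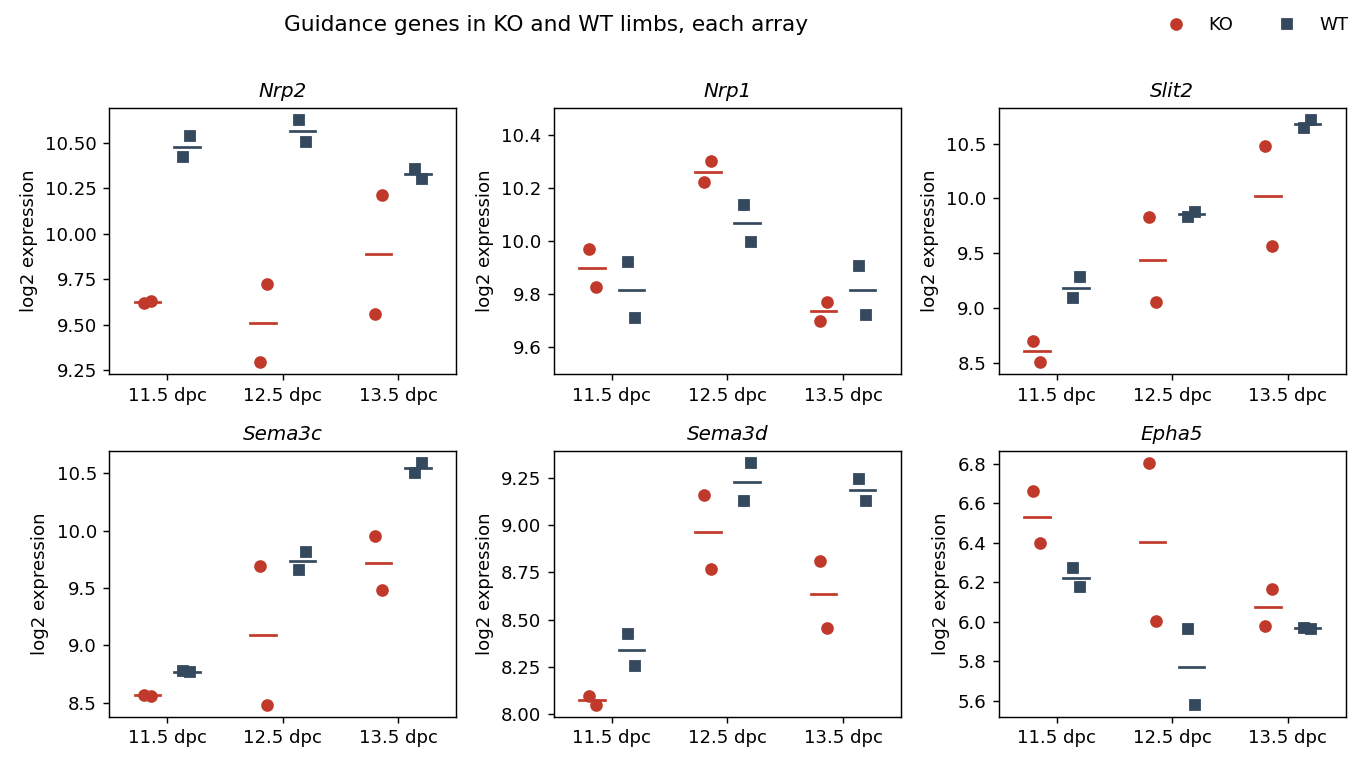
Log2 expression (y axis) of Nrp2, Nrp1, Slit2, Sema3c, Sema3d and Epha5 on each array by stage (x axis), KO as circles left of WT as squares, with the mean of each pair as a line; the y axes differ and do not start at 0. On the probe sets used, Nrp2 and Slit2 lie lower in KO at all 3 stages, Epha5 lies higher, and the KO pairs of 12.5 dpc are wide for Slit2 and Sema3c.

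Among the semaphorins, the ligands, all 8 had a negative difference over the 3 stages, with a median of -0.19, where the median of all genes was -0.02. None passed the test over all genes. At unadjusted p under 0.05, 7 of 44 guidance genes were lower in KO, where 5.25% of all genes were, and 3 of the 7 were semaphorins. Sema3c, a class 3 ligand of both neuropilins, lay at 8.56 and 8.56 in KO limbs and 8.77 and 8.77 in WT limbs at 11.5 dpc. At 12.5 dpc it lay at 9.69 and 8.48 in KO limbs and 9.66 and 9.81 in WT limbs, and at 13.5 dpc at 9.95 and 9.48 in KO limbs and 10.50 and 10.59 in WT limbs. On the probe set used, KO lay below WT at 11.5 and 13.5 dpc and overlapped it at 12.5 dpc, where KO replicate 2 was low. The difference was -0.56 ± 0.17 over the 3 stages (limma adjusted p = 0.482) and -0.28 without the 2 KO arrays that stood apart. Without KO 12.5 dpc replicate 1, which leaves replicate 2, an array that stood apart, alone in its group, it was -0.76. A second Sema3c probe set gave -0.46 and overlapped at every stage. At 11.5 dpc that one read 7.16 and 7.22 in KO limbs and 7.02 and 7.39 in WT limbs. At 13.5 dpc it read 8.31 and 7.76 in KO limbs and 8.12 and 8.84 in WT limbs.

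Sema3d, another class 3 ligand, lay at 8.10 and 8.05 in KO limbs and 8.42 and 8.25 in WT limbs at 11.5 dpc. It lay at 9.16 and 8.77 in KO limbs and 9.13 and 9.33 in WT limbs at 12.5 dpc, and at 8.81 and 8.46 in KO limbs and 9.24 and 9.12 in WT limbs at 13.5 dpc. The pairs overlapped at 12.5 dpc and were apart, with KO lower, at 11.5 and 13.5 dpc. The difference was -0.36 ± 0.09 (limma adjusted p = 0.318), and -0.23 without the 2 arrays that stood apart. It was -0.42 without KO 12.5 dpc replicate 1, which leaves replicate 2, an array that stood apart, alone in its group. A second Sema3d probe set gave -0.10. Sema3a, the classic repellent of Nrp1-bearing axons, lay at -0.19 ± 0.08 (limma adjusted p = 0.699). Sema3f, the repellent that acts through Nrp2, lay at -0.06 ± 0.06 with a limma adjusted p of 0.928.

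Sema3e, the ligand of Plxnd1, was read by a dim probe set with a mean of 6.03, below the median of all values. That probe set gave -0.20 ± 0.18 over the 3 stages. The next probe set lay at 4.81 and 4.85 in KO limbs and 5.07 and 5.02 in WT limbs at 11.5 dpc, at 5.56 and 5.21 in KO limbs and 6.14 and 6.44 in WT limbs at 12.5 dpc, and at 6.94 and 6.12 in KO limbs and 7.46 and 7.81 in WT limbs at 13.5 dpc. There, KO lay below WT at every stage, and the mean difference was -0.74. The remaining Sema3e probe sets gave -0.49 and -0.25. All 4 were thus negative and spread over more than the standard error of the probe set used.

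Slit2, a secreted ligand of Robo receptors, lay at 8.70 and 8.51 in KO limbs and 9.09 and 9.28 in WT limbs at 11.5 dpc. At 12.5 dpc it lay at 9.83 and 9.06 in KO limbs and 9.83 and 9.88 in WT limbs, and at 13.5 dpc at 10.48 and 9.56 in KO limbs and 10.64 and 10.71 in WT limbs. Both KO arrays lay below both WT arrays at every stage, by under 0.01 for replicate 1 at 12.5 dpc. Nrp2 and Slit2 were the 2 of 44 with KO below WT at all 3 stages on the probe sets used, where 1.31% of all genes were. A second Slit2 probe set ran the other way at 12.5 dpc, with 7.40 and 6.98 in KO limbs above 6.76 and 6.83 in WT limbs, and the third overlapped there. The Slit2 difference was -0.55 ± 0.16 (limma adjusted p = 0.472) and did not pass. It was -0.27 without the 2 KO arrays that stood apart, and the other Slit2 probe sets gave -0.07 and -0.46. Without KO 12.5 dpc replicate 1, which leaves replicate 2, an array that stood apart, alone in its group, it was -0.68. In those 2 arrays cartilage markers were low too, with a summed level of 12.90 in KO 12.5 dpc replicate 2 beside 13.45 in its partner and 13.44 and 13.50 in WT, and of 13.05 in KO 13.5 dpc replicate 2 beside 13.63 in its partner and 13.85 and 13.93 in WT. In KO 12.5 dpc replicate 2, 6 skeletal muscle markers also summed to a low 12.86, beside 13.94 in its partner and 13.63 and 13.74 in WT. There, 3 heat shock genes summed to a high 11.84, beside 11.38 in its partner and 11.16 and 11.26 in WT, and 5 erythroid markers to 15.59, beside 15.06 in its partner and 15.30 and 15.32 in WT. The part of these lists in the Slit2 and semaphorin differences was not tested.

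Of the other members of this system, Slit1 lay at -0.13 ± 0.10, Slit3 at 0.08 ± 0.07 and the receptor Robo1 at -0.15 ± 0.08, and none passed. Robo2, a second Slit receptor, was read by 1 probe set with a mean of 5.05, below the median of all values. It lay at 6.40 and 6.63 in KO limbs and 6.00 and 5.92 in WT limbs at 12.5 dpc, where KO lay higher by 0.56 ± 0.19 (limma adjusted p = 0.325). Over the 3 stages Robo2 differed by 0.17 ± 0.11 (limma adjusted p = 0.850).

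Among the Eph receptors, differences over the 3 stages ran from -0.32 to 0.35 with a median of 0.01, and none of the 8 passed. Epha5, a receptor of A-type ephrins, had the highest. It lay at 6.66 and 6.40 in KO limbs and 6.27 and 6.17 in WT limbs at 11.5 dpc, at 6.80 and 6.00 in KO limbs and 5.96 and 5.58 in WT limbs at 12.5 dpc, and at 5.98 and 6.17 in KO limbs and 5.97 and 5.96 in WT limbs at 13.5 dpc. KO lay above WT at each stage, which held for 1 of 44 guidance genes and 0.352% of all genes. The separation at 13.5 dpc was about 0.01 for the nearest arrays. The difference was 0.35 ± 0.13 (limma adjusted p = 0.624) at levels close to the median of all values, and the other Epha5 probe sets gave 0.22, 0.05 and -0.0007. At unadjusted p under 0.05, Epha5 was the 1 of 44 that was higher, where 1.62% of all genes were.

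Epha7, another receptor of A-type ephrins, lay at 8.39 and 8.27 in KO limbs and 8.96 and 8.73 in WT limbs at 11.5 dpc. It lay at 9.24 and 8.79 in KO limbs and 9.08 and 8.94 in WT limbs at 12.5 dpc, and at 8.64 and 8.83 in KO limbs and 9.41 and 8.98 in WT limbs at 13.5 dpc. KO was lower at 11.5 and 13.5 dpc and enclosed the WT values at 12.5 dpc. The difference was -0.32 ± 0.10 (limma adjusted p = 0.488). Epha4, the receptor of motor axons that turn dorsally, differed by -0.08 ± 0.08 (limma adjusted p = 0.927), and its other 4 probe sets by -0.05 to 0.07. Epha2 differed by 0.12 ± 0.06 and Epha3 by 0.11 ± 0.05, and neither passed. Among the ephrins, which ran from -0.32 to 0.11, Efnb2, the arterial ligand of Ephb4, lay at -0.32 ± 0.11 (limma adjusted p = 0.561). Its difference was -0.20 without KO 12.5 dpc replicate 2, an array that stood apart. It was -0.44 without KO 12.5 dpc replicate 1, which leaves replicate 2 alone in its group. Efnb1 lay at 0.11 ± 0.06 and Efna3 at 0.09 ± 0.06, and the A-type ligand Efna5 at -0.12 ± 0.09.

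Ntn1, the secreted attractant and repellent bound by Dcc and Unc5 receptors, was the least steady member. It lay at 9.40 and 9.23 in KO limbs and 9.95 and 10.12 in WT limbs at 11.5 dpc. It lay at 8.73 and 7.85 in KO limbs and 8.93 and 9.22 in WT limbs at 12.5 dpc, and at 7.72 and 9.38 in KO limbs and 8.27 and 8.15 in WT limbs at 13.5 dpc. KO was lower at the earlier stages, and at 13.5 dpc its arrays lay on both sides of WT. The difference over the 3 stages was -0.39 ± 0.25 (limma adjusted p = 0.849). KO 13.5 dpc replicate 2, the array that carries the high Ntn1 value, also had a summed level of 11.11 for 4 proximal limb markers, beside 9.80 in its partner and 10.07 and 9.91 in WT, whose part was not tested. Without the 2 KO arrays that stood apart, which leaves 1 array in each KO group of 12.5 and 13.5 dpc, the Ntn1 difference was -0.51. Ntn4 lay at -0.11 ± 0.05, the repulsive receptors Unc5b at 0.08 ± 0.09 and Unc5c at -0.09 ± 0.08, and Dcc at -0.06 ± 0.06, with no call. The other Dcc probe sets gave 0.42 and 0.44, against the sign of the one used.

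**Figure D3:**
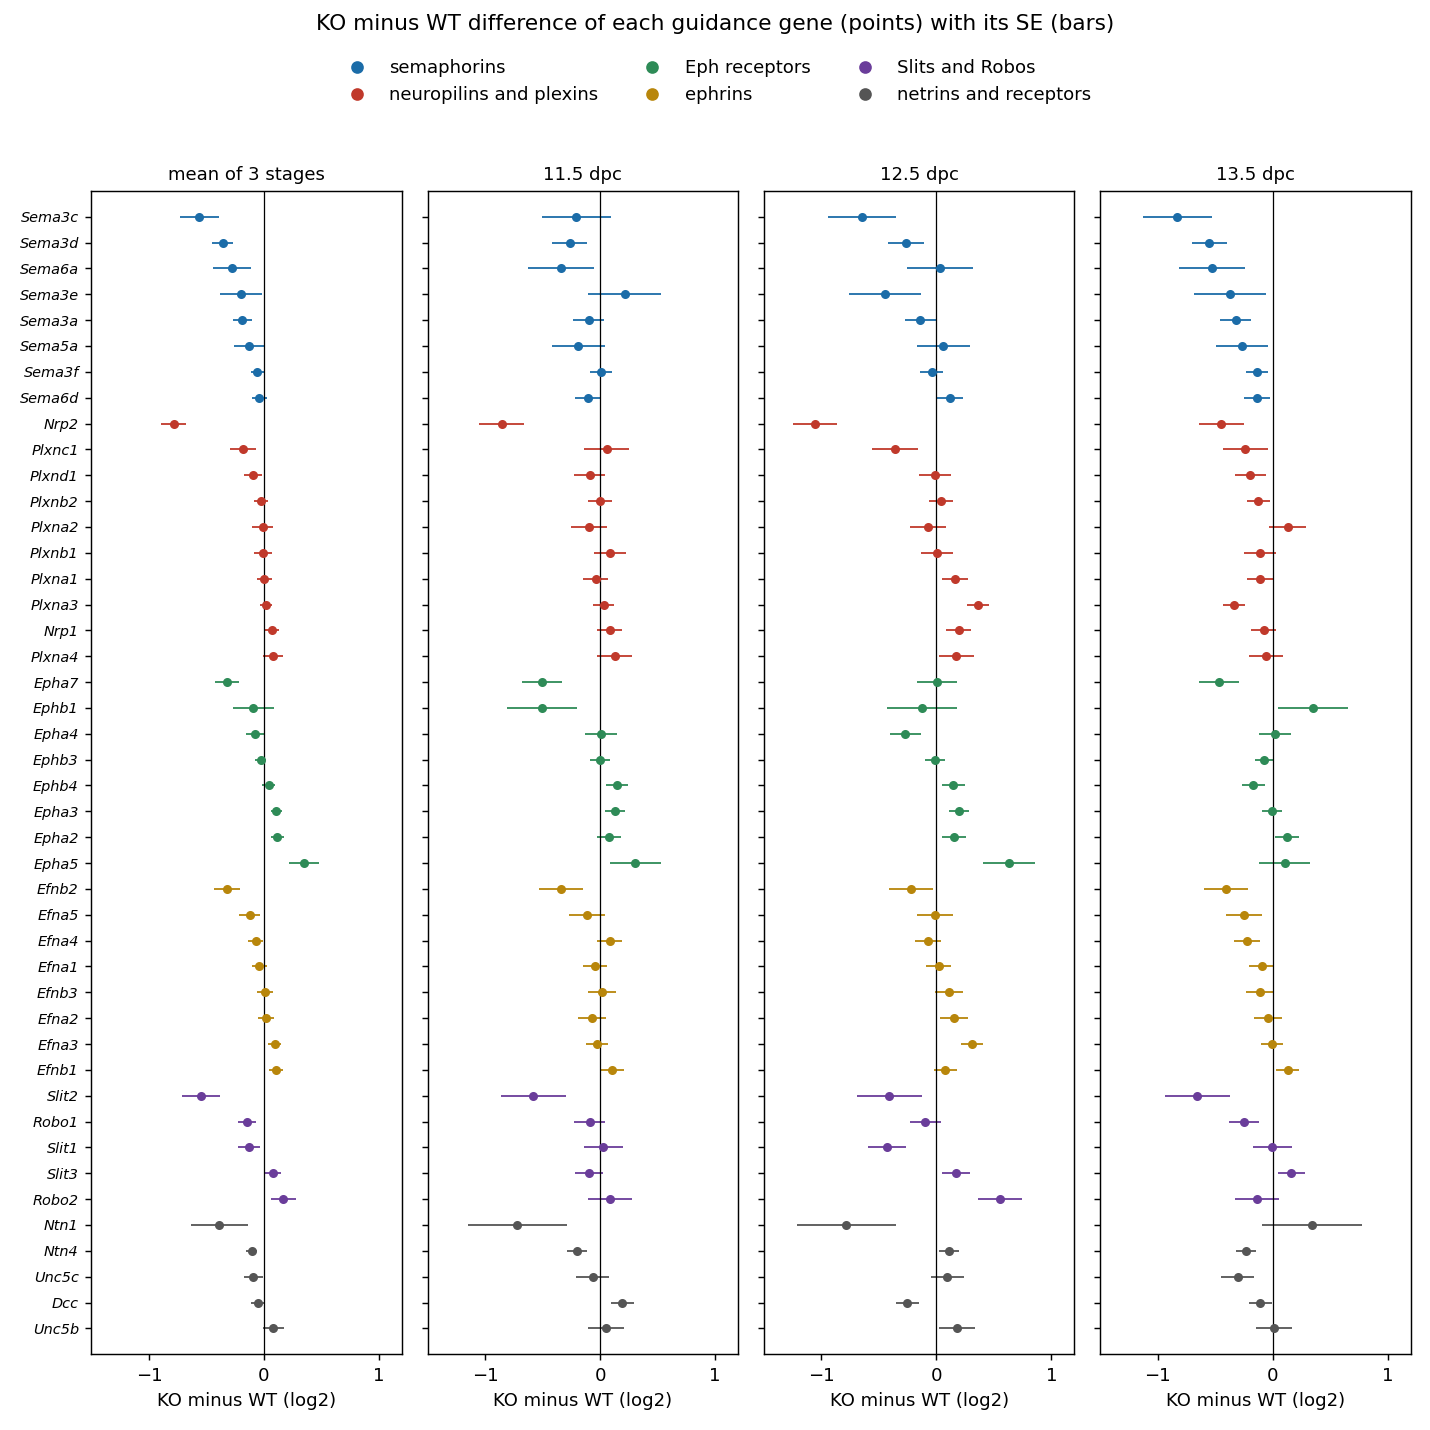
KO minus WT difference (log2, x axis) of the 44 guidance genes, as the mean of 3 stages and at 11.5, 12.5 and 13.5 dpc, with bars of 1 SE and colours by family. The 1 gene that passed is Nrp2 in the mean of 3 stages, and most points lie left of 0 at 13.5 dpc, where 35 of 44 are below 0.

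Within single stages, limma called 0 of the 44 at each of 11.5, 12.5 and 13.5 dpc, where 0.0165%, 0.0385% and 0.0275% of all genes were called. Lmx1b itself was called at 11.5 dpc (limma adjusted p = 0.00872) and narrowly at 12.5 dpc (0.0476). At 13.5 dpc it differed by -2.05 and was not called (limma adjusted p = 0.153). A test that did not call Lmx1b cannot show that the 44 were unchanged at 13.5 dpc. At unadjusted p under 0.05, 3 of the 44 were lower and 0 higher in KO at 11.5 dpc, where 1.12% and 0.522% of all genes were. The 3 were Nrp2 (-0.86 ± 0.19), Epha7 (-0.51 ± 0.18) and Ntn4 (-0.20 ± 0.09). At the other end, Epha5 lay at 0.31 ± 0.22, Sema3e at 0.21 ± 0.31, Dcc at 0.19 ± 0.10, Ephb4 at 0.15 ± 0.10 and Epha3 at 0.13 ± 0.09. Of the 44, 24 were below 0, where 60.3% of all genes were. The arrays did not overlap for 17 genes with KO below and 8 with KO above, where 26.8% and 12.8% of all genes did not.

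At 12.5 dpc, unadjusted p was under 0.05 for 3 lower and 5 higher genes, where it was for 6.62% and 4.27% of all genes. The lower ones were Nrp2 (-1.06 ± 0.19), Slit1 (-0.43 ± 0.17) and Dcc (-0.25 ± 0.10). Unused probe sets went the other way at this stage, with 0.57 and 0.21 for Dcc and 0.07 for Slit1. Higher were Epha5 (0.63 ± 0.22), Robo2, Plxna3, a receptor of class 3 semaphorins (0.36 ± 0.09), Efna3 (0.31 ± 0.10) and Epha3 (0.20 ± 0.09). KO arrays lay below WT without overlap for 7 genes and above for 12, where 19.3% and 15% of all genes did. Of the 44, 20 were below 0 at this stage, where 54.3% of all genes were.

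At 13.5 dpc, 35 of 44 were below 0, where 52.6% of all genes were, with a median of -0.13 and one of -0.01 over all genes. Several marker lists also lay to 1 side at this stage, with 6 of 6 below 0 in surface ectoderm (median -0.37), endothelium (-0.14) and cartilage (-0.94). Medians were 0.69 for erythroid cells and 0.36 for skeletal muscle. The erythroid sum was 15.10 in KO replicate 2, beside 14.47 in its partner and 14.39 and 14.22 in WT. The muscle sum was 12.87 in KO replicate 2, beside 12.44 in its partner and 12.35 and 12.24 in WT. The part of these lists was not tested. The 35 held all 8 semaphorins, 9 of 10 neuropilins and plexins and 7 of 8 ephrins. Unadjusted p was under 0.05 for 8 lower and 0 higher genes, where it was for 4.29% and 1.61% of all genes. The 8 were Sema3c (-0.83 ± 0.30), Slit2 (-0.65 ± 0.28), Sema3d (-0.55 ± 0.15), Epha7 (-0.46 ± 0.18), Nrp2 (-0.45 ± 0.19), Plxna3 (-0.34 ± 0.09), Sema3a (-0.32 ± 0.14) and Ntn4 (-0.23 ± 0.09). KO lay below WT without overlap for 20 and above for 2, where 22.3% and 11.6% of all genes did. Without KO 13.5 dpc replicate 2, 34 of 44 were below 0, where 59.9% of all genes were.

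Whether the KO effect differed between stages was tested directly for each gene. Limma called 0 of 44, and 0% of all genes. Unadjusted p was under 0.05 for 3 of 44, where it was for 5.93% of all genes. Plxna3 had the smallest, at 0.00123 (limma adjusted p = 0.605). It lay at 8.87 and 8.91 in KO limbs and 8.89 and 8.83 in WT limbs at 11.5 dpc, at 8.93 and 8.84 in KO limbs and 8.60 and 8.44 in WT limbs at 12.5 dpc, and at 8.95 and 8.83 in KO limbs and 9.28 and 9.17 in WT limbs at 13.5 dpc. KO was thus above WT at 12.5 dpc and below it at 13.5 dpc with no overlap at either stage on this probe set, while KO itself stayed between 8.83 and 8.95. On a second probe set it lay at 8.46 and 8.46 in KO limbs and 8.22 and 8.45 in WT limbs at 11.5 dpc. At 12.5 dpc that probe set read 8.76 and 8.73 in KO limbs, between 8.79 and 8.53 in WT limbs. At 13.5 dpc that probe set read 8.73 and 8.54 in KO limbs, below 8.82 and 8.82 in WT limbs. The others, on the probe sets used, were Dcc and Ntn4.

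More guidance genes passed the test between stages than between genotypes, and several did so in both KO and WT limbs. From 11.5 to 12.5 dpc, 14 of 44 passed in KO limbs, where 16.8% of all genes passed, and 13 of 44 in WT limbs, where 19.8% did. Passing in both genotypes were 4 that rose, where 3.27% of all genes did so, and 4 that fell, where 7.79% did. From 12.5 to 13.5 dpc, 9 of 44 passed in KO limbs, where 18.6% of all genes passed, and 14 in WT limbs, where 25.3% did. Here 5 rose in both, where 7.11% of all genes did, and 2 fell in both, where 5.27% did. The KO and WT changes, which use different arrays, correlated across the 44 genes with r = 0.88 over the earlier interval (36 with the same sign) and r = 0.758 over the later one (31 with the same sign). The points share the array file series of each stage and are not independent. The same correlation was not computed over all genes, so it is not shown to be particular to these genes. The shares over all genes include dim genes. A filter on dim genes kept all 44 members and 12103 genes in total. From 11.5 to 12.5 dpc, limma unadjusted p was under 0.05 in KO limbs for 31% of all genes and 39.8% of those kept. In WT limbs it was for 34.6% and 42.1%. Of the 44 it was for 19 and 20 in KO limbs and for 23 and 23 in WT limbs.

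Robo2 changed most. Its KO arrays read 4.51 and 3.93 at 11.5 dpc, 6.40 and 6.63 at 12.5 dpc and 4.61 and 4.71 at 13.5 dpc. Its WT arrays read 4.34 and 3.92, then 6.00 and 5.92, then 4.88 and 4.72. Both genotypes peaked at 12.5 dpc with no overlap between that stage and either neighbour. It rose by 2.30 ± 0.19 in KO limbs (limma adjusted p = 0.000385) and 1.83 ± 0.19 in WT limbs (0.000807), and then fell by 1.85 ± 0.19 in KO and 1.16 ± 0.19 in WT limbs. At 11.5 and 13.5 dpc its level lay below the median of all values, 6.28, on every array. At 12.5 dpc both WT arrays also lay below that median, and both KO arrays lay above it. An unused Dcc probe set fell from 12.5 to 13.5 dpc, from 6.65 and 6.76 to 4.19 and 4.54 in WT limbs. In KO limbs it went from 7.80 and 6.04 to 4.31 and 5.46. Another went from 6.57 and 6.47 to 4.94 and 4.51 in WT limbs, and from 7.65 and 6.53 to 4.31 and 6.11 in KO limbs. The Dcc probe set used lay between 6.71 and 7.08 on every array.

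Epha3 followed the course of Robo2. It lay at 10.37 and 10.28 in KO limbs and 10.21 and 10.17 in WT limbs at 11.5 dpc, at 10.84 and 10.91 in KO limbs and 10.67 and 10.68 in WT limbs at 12.5 dpc, and at 9.76 and 9.89 in KO limbs and 9.80 and 9.87 in WT limbs at 13.5 dpc. It rose by 0.55 ± 0.09 in KO and 0.49 ± 0.09 in WT limbs, and then fell by 1.04 ± 0.09 in KO limbs (limma adjusted p = 0.000357) and 0.85 ± 0.09 in WT limbs (0.000455). Robo1 rose by 0.68 ± 0.13 in KO and 0.69 ± 0.13 in WT limbs by 12.5 dpc, and Sema3d by 0.89 ± 0.15 in each. The early calls of Robo1 and Epha3 rested on the probe set used in both genotypes. The mean of the 3 Robo1 probe sets gave 0.21 in KO limbs (limma adjusted p = 0.212) and 0.22 in WT limbs (0.178). The mean of the Epha3 probe sets gave 0.33 in KO limbs (limma adjusted p = 0.0953) and 0.35 in WT limbs (0.0701).

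Efna3, an A-type ephrin, ran the other way. It lay at 8.33 and 8.29 in KO limbs and 8.33 and 8.34 in WT limbs at 11.5 dpc, at 7.94 and 7.75 in KO limbs and 7.52 and 7.55 in WT limbs at 12.5 dpc, and at 8.20 and 8.39 in KO limbs and 8.30 and 8.29 in WT limbs at 13.5 dpc. It fell by 0.47 ± 0.10 in KO and 0.80 ± 0.10 in WT limbs, and then rose by 0.45 ± 0.10 in KO and 0.76 ± 0.10 in WT limbs. Ephb3, a receptor of B-type ephrins, fell by 0.29 ± 0.09 in KO and 0.28 ± 0.09 in WT limbs and then rose by 0.42 ± 0.09 in KO and 0.48 ± 0.09 in WT limbs. The earlier WT fall of Ephb3 passed narrowly (limma adjusted p = 0.0451). Unc5b (-0.56 ± 0.16 in KO, -0.69 ± 0.16 in WT limbs) and Plxnd1 (-0.47 ± 0.14 in KO, -0.55 ± 0.14 in WT limbs) also fell by 12.5 dpc. In KO limbs, leaving out 1 array kept the earlier call of Ephb3 in 2 of 12 cases, that of Plxnd1 in 4 and that of Unc5b in 5, with a change of -0.86 to -0.27 for Unc5b over the alternatives. In WT limbs it ended the earlier call of Ephb3 in 8 of 12 cases. It also ended those of Plxnd1 (limma adjusted p up to 0.143), Unc5b (up to 0.0923), Robo1, Epha3 and Sema3d (0.0513 to 0.0562), in each case for arrays among the 4 WT arrays compared. The WT calls of Robo2 and Efna3 held in all 12 cases.

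**Figure D4:**
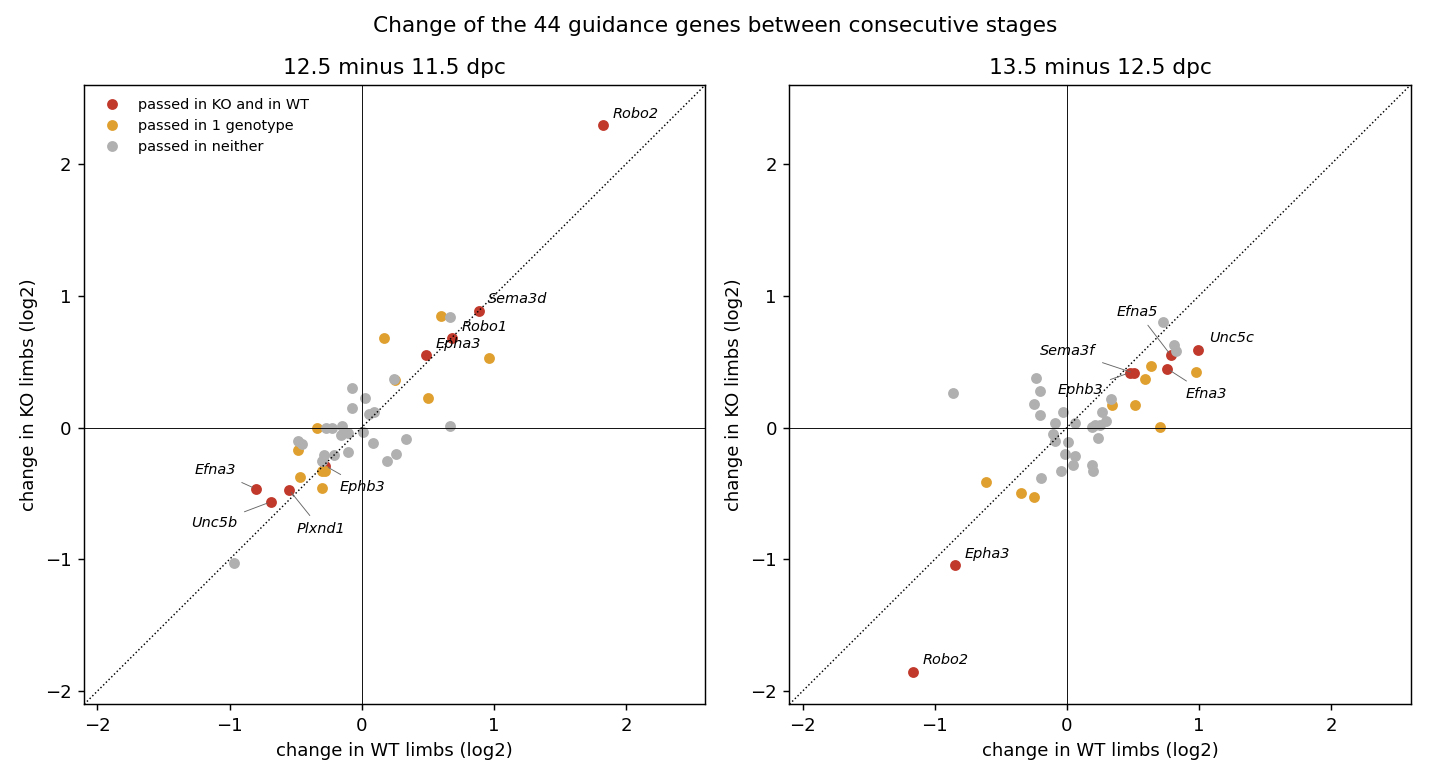
Change between consecutive stages (log2) in KO limbs (y axis) and WT limbs (x axis) for the 44 guidance genes, coloured by whether the change passed the test in both genotypes, in 1 or in neither; the dotted line marks equal change. Robo2 lies farthest out in both panels, at 2.30 in KO and 1.83 in WT limbs and at -1.85 in KO and -1.16 in WT limbs.

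By 13.5 dpc, Unc5c, the repulsive netrin receptor, rose by 0.59 ± 0.14 in KO and 0.99 ± 0.14 in WT limbs. It lay at 9.81 and 9.63 in KO limbs and 9.55 and 9.69 in WT limbs at 12.5 dpc, and at 10.52 and 10.10 in KO limbs and 10.55 and 10.67 in WT limbs at 13.5 dpc. The stages did not overlap in either genotype. A second Unc5c probe set lay at 10.15 and 9.63 in KO limbs and 9.83 and 9.82 in WT limbs at 12.5 dpc, and at 9.54 and 9.17 in KO limbs and 9.44 and 9.86 in WT limbs at 13.5 dpc, which is not a rise. The mean of both probe sets was 0.03 in KO limbs (limma adjusted p = 0.912) and 0.41 in WT limbs (0.0817) and passed in neither, so that the calls in both genotypes rest on the probe set used. Efna5 rose by 0.55 ± 0.16 in KO and 0.79 ± 0.16 in WT limbs. Its KO call was kept in 3 of 12 fits without 1 array, with changes of 0.26 to 0.84 over the alternatives, and its WT call in all 12. Sema3f rose by 0.41 ± 0.10 in KO and 0.51 ± 0.10 in WT limbs.

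Other changes passed in 1 genotype, and the difference between genotypes in these changes was not called for any. By 12.5 dpc, Epha7, Nrp1 and Sema5a rose and Efna4, Efnb1 and Sema3f fell in KO limbs, while Epha4 and Sema3c rose and Efnb3, Ntn4 and Plxna3 fell in WT limbs. Most of these calls were not steady. Of 12 fits without 1 array, the KO call was kept in 0 for Nrp1, 2 for Efnb1, 3 for Sema3f, 9 for Epha7 and for Sema5a, and 10 for Efna4. The mean of a gene's probe sets gave no KO call for Epha7 (0.15, limma adjusted p = 0.636), Sema5a (0.22, 0.356) or Nrp1 (0.13, 0.396). The WT call was kept in 2 of the 12 for Sema3c, 5 for Plxna3, 8 for Epha4, 9 for Efnb3 and 11 for Ntn4. For Plxna3 the mean of its probe sets was -0.0053 in WT limbs (limma adjusted p = 0.978), with no fall. By 13.5 dpc, Nrp1 and Robo1 fell in KO limbs. In WT limbs Plxna2 fell and Efnb3, Ntn4, Plxna3, Plxnb2, Sema6a and Unc5b rose. The mean of a gene's probe sets gave no call for Nrp1 (-0.15, limma adjusted p = 0.292) or Robo1 (-0.12, 0.488) in KO limbs, nor for Plxna2 (-0.28, 0.338) in WT limbs. The WT calls of Efnb3, Ntn4 and Plxna3 were kept in all 12 fits without 1 array, and that of Plxnb2 in 5. Nrp2 changed by -0.12 ± 0.19 and 0.38 ± 0.19 in KO limbs and by 0.09 ± 0.19 and -0.24 ± 0.19 in WT limbs over the 2 intervals, none of which passed. Slit2 reached its highest values at 13.5 dpc in WT limbs and in KO replicate 1, and its changes of 0.84 ± 0.28 and 0.58 ± 0.28 in KO and 0.67 ± 0.28 and 0.82 ± 0.28 in WT limbs did not pass (limma adjusted p = 0.0568 to 0.177).

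**Figure D5:**
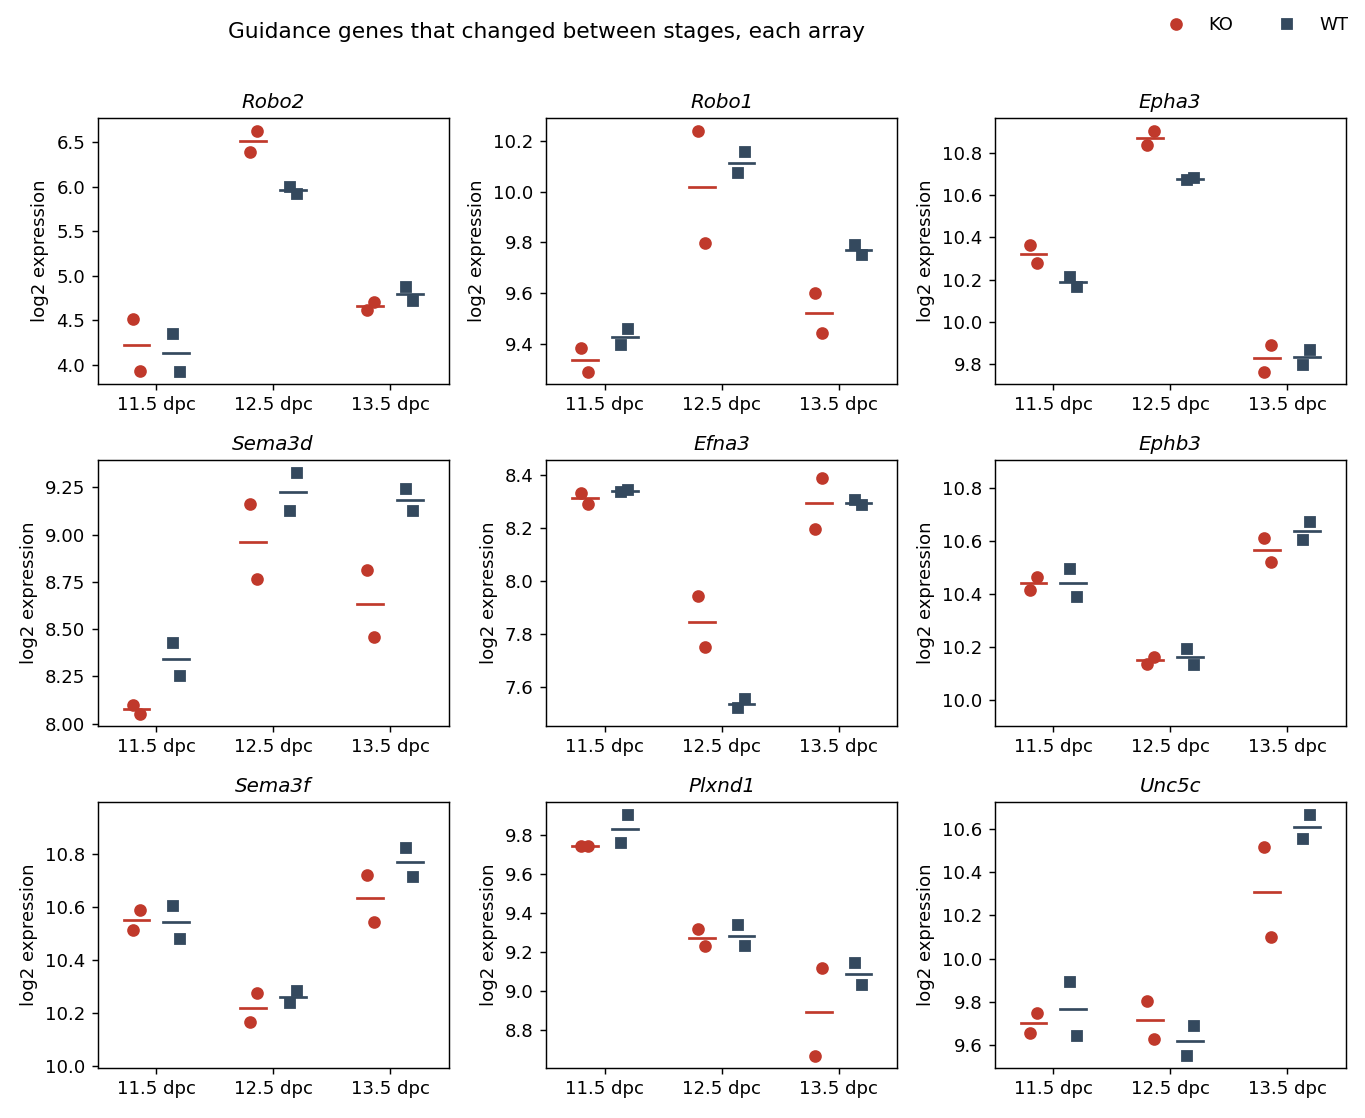
Log2 expression (y axis) of 9 guidance genes that changed between stages, on each array by stage (x axis), KO as circles left of WT as squares, with the mean of each pair as a line; the y axes differ and do not start at 0. Robo2, Robo1 and Epha3 are highest at 12.5 dpc in both genotypes, and Efna3, Ephb3 and Sema3f are lowest there.

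A companion list of 31 other ligands and receptors of these systems, and one of 30 intracellular effectors, were read in the same fit. Of the 31, Unc5d, a further netrin receptor, fell. It lay at 5.14 and 5.08 in KO limbs and 5.35 and 5.59 in WT limbs at 11.5 dpc, at 5.12 and 4.31 in KO limbs and 6.15 and 6.13 in WT limbs at 12.5 dpc, and at 5.16 and 5.40 in KO limbs and 6.34 and 5.96 in WT limbs at 13.5 dpc. KO lay below WT at each stage, by -0.89 ± 0.13 on average (limma adjusted p = 0.0306), at levels mostly below the median of all values. Only WT 13.5 dpc replicate 1, at 6.34, read above that median. The Unc5d call held under 7 of 19 alternatives, with limma adjusted p up to 0.146. The filter on dim genes removed Unc5d, so it was not tested there. The other 30 did not pass, the median of the list was -0.04 and 20 of 31 were below 0, where 58.6% of all genes were. Plxnb3, a B-type plexin, lay at 0.21 with a limma adjusted p of 0.451. Of the 30 effectors, which include collapsin response mediators and Mical oxidases, limma called 0, and unadjusted p was under 0.05 for 1, Vav2 (0.19). Their median was -0.03 and 21 were below 0.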

How the data were processed

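The values are log2 expression values of 45101 probe sets on 12 arrays, as deposited by the authors. Per the submitters' processing notes they come from RMA. This method corrects background, normalises between arrays and summarises probes. No source used here gives a version, and the background step was not varied. The arrays' sorted values differed by at most 0.242 at any rank. Of the probe sets, 34945 named 1 gene (932 named several, 9160 none), of which 34741 matched RefSeq, giving 18193 genes. Names come from the platform annotation. The brightest probe set stood for each gene.

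Each group of stage and genotype had its own mean in 1 limma 3.58.1 fit (R 4.3.3; lmFit, eBayes, two-sided) over all 12 arrays, with residual df of 6. Benjamini-Hochberg adjustment ran over all 18193 genes, with a threshold of 0.05. The fit was tested on simulated data. Errors with ± are standard errors. Named members were Nrp2, members past the threshold, those with the largest differences per contrast, and examples of each family. Members and lists were chosen with earlier results of these data known. Same-numbered KO and WT replicates had deviations correlating at 0.187, -0.12 and -0.0869 at 11.5, 12.5 and 13.5 dpc, so the numbers were not taken to pair the samples. Other settings tried were each array left out, array sets, a replicate block, moderation, array weights, probe set choice, renewed quantile normalization and a filter on dim genes.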

Additional observations from a re-analysis of the deposited data

How the results depend on the processing

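Leaving out each array in turn gave 0 to 7 called guidance genes for KO minus WT over the 3 stages, where all arrays gave 1. The highest count, without KO 12.5 dpc replicate 1, held Nrp2, Sema3c, Sema3d, Slit2, Efnb2, Sema6a (-0.48) and Plxnc1 (-0.31). In that fit KO 12.5 dpc was read from replicate 2 alone, an array that stood apart. The share of all genes with unadjusted p under 0.05 rose in that fit too. The comparison over the 3 stages gave 0 with a replicate block, 0 with the mean of a gene's probe sets and 0 with all probe sets tested. The cause was not tested. In the same fits limma unadjusted p was under 0.05 for 5.95%, 6.85% and 6.16% of all genes, where all arrays gave 6.87%. Of the 44 it was for 8, 11 and 8, where all arrays gave 8. Single stages gave 0 at 11.5 dpc and 0 at 13.5 dpc whichever array was left out, and 0 to 4 at 12.5 dpc, with 4 without KO 12.5 dpc replicate 1. At 11.5 dpc 1 gene, Nrp2, was called without the 2 KO arrays that stood apart and 1 with array quality weights, and at 12.5 dpc 1 without those 2 arrays. The difference between stages gave 0 throughout. Changes between stages moved more. From 11.5 to 12.5 dpc in KO limbs, all arrays gave 14, leaving out 1 array 1 to 16, the fit without the 2 arrays 23, the 4 arrays compared alone 0, the replicate block 6, array weights 9 and the mean of probe sets 9. In WT limbs over that interval, all arrays gave 13, leaving out 1 array 3 to 20, the fit without the 2 arrays 26, the block 8 and array weights 22. From 12.5 to 13.5 dpc in KO limbs, all arrays gave 9, leaving out 1 array 5 to 14, the fit without the 2 arrays 17, the 4 arrays alone 1 and array weights 2. In WT limbs over that interval, all arrays gave 14, leaving out 1 array 10 to 19 and the fit without the 2 arrays 24. The earlier KO count fell to 4 and 1 without KO 11.5 dpc replicate 1 or 2, to 8 without any 1 WT array of 11.5 or 13.5 dpc, and to 9 without KO 12.5 dpc replicate 1. The earlier WT count fell to 4 and 3 without WT 11.5 dpc replicate 1 or 2 and to 8 without either WT 12.5 dpc array, and was 20 without either KO 12.5 dpc array. The later KO count was 14 without KO 12.5 dpc replicate 1 and 5 without KO 13.5 dpc replicate 1. Fits without an array leave 1 array in a group, and shares over all genes moved between settings too. From 11.5 to 12.5 dpc in KO limbs, limma unadjusted p was under 0.05 for 31% of all genes. It was for 26.6% with the 4 arrays alone and 27.3% with array weights. In WT limbs it was for 34.6%, and for 39.5% with array weights. The moves in these counts are thus not shown to be particular to guidance genes. The replicate numbers were not taken to pair the samples, although weak correlations of their deviations cannot exclude a pairing. A crossed replicate block at 12.5 dpc, chosen after seeing the data, gave 1 called gene over the 3 stages and 0 at 12.5 dpc. Renewed quantile normalization left 27 of 44 below 0 over the 3 stages, where 47.3% of all genes were, against 29 of 44 and 58.6% as deposited. No named gene's called difference changed sign under any of these settings. The probe sets of Epha5, Robo2 and Sema3e had means below the median of all values, which limits what they can show.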
